A study of Fukomys damarensis and Heterocephalus glaber and Cavia porcellus with 28 samples.

Results

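The genes described here encode RNA-binding proteins that decide which exons of a pre-mRNA are kept. They were taken as every row of the deposited heart and liver tables whose mouse symbol begins with Hnrnp or with Srsf and a digit, together with the Tra2, Rbfox, Celf, Mbnl and Ptbp genes and with Rbm20, Rbm24, Rbm25 and Rbm39. The rule found 47 of the 13928 rows in each table. Another 7 gene symbols that match it (Hnrnpa0, Hnrnpa3, Hnrnpul2, Srsf2, Srsf10 and the pseudogenes Hnrnpa1l2-ps and Hnrnpa1l2-ps2) were not analysed here. Ribosomal-RNA-depleted total RNA was sequenced from 2 long-lived subterranean African rodents, the naked and the Damaraland mole-rat, and from 2 outgroups, guinea pig and mouse. The 14 hearts were those of 3 mice, 3 guinea pigs, 5 Damaraland and 3 naked mole-rats, and the 14 livers those of 2 mice, 3 guinea pigs, 5 Damaraland and 4 naked mole-rats. The naked mole-rats were 13 to 17 months old, the Damaraland mole-rats 36 to 48 (the labels give 1 of them 2 ages), the guinea pigs 2.3 and the mice 2 months. All animals were male except the donor of Damaraland liver replicate 4, no strain or treatment is given in the labels, and each library of a tissue came from a separate animal. Of 18 animals 10 gave both tissues. Age differed between the species throughout, so species and age cannot be told apart.

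Most exons are chosen by a balance of activators and repressors bound to the pre-mRNA. SR proteins, the products of the Srsf genes, and the related Tra2 proteins bind exonic enhancers and mainly favour exon inclusion, whereas hnRNP proteins coat nascent transcripts and often favour skipping. Rbm20, Rbm24 and several of the Rbfox, Celf, Mbnl and Ptbp proteins are more restricted by tissue or developmental stage. In heart, proteins of these groups set the splice forms of sarcomere and calcium-handling genes such as titin. Several of these genes control their own level through poison exons, alternative exons that send the transcript to decay.

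Values are the deposited variance-stabilised values, a log2-like scale on which 1 unit is close to a doubling for abundant genes and less than that for rare ones. In heart, a doubling from 1000 to 2000 scaled reads moved the value by 0.946, and a doubling from 10 to 20 moved it by 0.282. The corresponding values in liver were 0.973 and 0.392. Scaled reads are the reads recovered from the values and divided by the library's size factor. The lowest possible value, that of a gene without reads, is 5.3645 in the heart table and 4.2893 in the liver table. The values carry no correction for gene length, so they are compared between species for the same gene and never between genes, and a difference in gene model between the species cannot be told apart from a difference in RNA level. Fewer cells of a type and less RNA per cell cannot be told apart in such bulk samples either. A gene was called different where limma gave an adjusted p under 0.05 and the difference was at least 1.

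The depth of a heart library was 4089633 to 26985779 recovered reads, where naked mole-rat replicate 3 was the shallowest, and that of a liver library 11220505 to 21467939. Every listed cardiomyocyte marker had reads in each heart library, and each of the 7 hepatocyte markers in the tables had reads in each liver library. The summed cardiomyocyte markers of heart were 722548 to 1132108 scaled reads in the naked mole-rat and 924848 to 1097523 in the guinea pig. They were higher, without overlap, in the Damaraland mole-rat (1602853 to 2213976) and mouse (2041948 to 2433844). Single markers did not all follow the sum. Ttn had means of 14.49 in the naked mole-rat, 16.97 in the Damaraland mole-rat, 16.43 in the guinea pig and 20.07 in the mouse. Myl2 had 17.76, 18.24, 17.35 and 16.55 in the same order. Of the 8 markers, 1 was called higher in the mole-rats than in the outgroups (Myl2) and 1 lower (Ttn). The summed hepatocyte markers of liver were 1725868 to 3022149 in the naked mole-rat, 1638762 to 2293484 in the Damaraland mole-rat, 935982 to 1613163 in the guinea pig and 1220837 to 1377384 in the mouse. Summed hepatocyte markers in heart were 12118 to 33465 scaled reads in the naked mole-rat, 3624 to 7108 in the Damaraland mole-rat, 3883 to 5648 in the guinea pig and 376 to 1296 in the mouse. Fibroblast and stellate markers summed to 45973 to 120854 in guinea pig heart and to 8653 to 45387 in the other hearts. Summed smooth muscle markers were highest in Damaraland heart, at 9377 to 14565 against 1832 to 5820. Of the 3 such markers called between mole-rats and outgroups, Acta2 and Cnn1 had their highest means there (12.85 and 9.64). Myh11 had its highest mean in the naked mole-rat, at 11.44 against 10.71 in the Damaraland mole-rat. In liver, bile duct markers summed to 2138 to 2980 in the naked mole-rat and 119 to 2048 elsewhere. Among them, Epcam was highest in the naked mole-rat (mean 11.17, against 5.64 to 6.68 elsewhere). Spp1 was highest in the mouse, at 8.97 against 5.03 in the naked mole-rat. Leukocyte markers in liver summed to 3023 to 4385 in the guinea pig and 821 to 1918 elsewhere. Endothelial markers summed to 7613 to 16501 in heart and 2716 to 7841 in liver, and the 1 erythroid marker in the tables to 32 to 1342 and 36 to 1949. The part of these cell types in the differences given here was not tested.

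In heart, the 2 mole-rats differed from the outgroups at 10 of the 41 splicing regulators tested, 6 of them higher (Rbm20, Hnrnpk, Srsf5, Srsf11, Rbm39, Hnrnpa1) and 4 lower (Hnrnph1, Rbfox2, Mbnl2, Ptbp3). That is 24.4% of the regulators, beside 23.4% of all 10667 genes tested (10.8% higher and 12.6% lower). In liver 8 of 42 regulators were called, 5 higher (Hnrnpk, Rbfox1, Hnrnpa1, Celf3, Tra2b) and 3 lower (Hnrnph1, Mbnl3, Hnrnpab). That is 19.0%, against 28.1% of all 10887 genes tested (15.1% higher and 13.0% lower). The split of 5 to 3 became 5 to 5 without guinea pig replicate 1, and 12 to 17 without the size threshold. The median difference of the regulators was 0.21 in heart and -0.22 in liver, against -0.01 and 0.02 over all genes tested. The 6 regulators not tested in heart (Celf3, Celf4, Celf5, Celf6, Rbfox3, Srsf12) and the 5 not tested in liver (Celf4, Celf5, Celf6, Rbfox3, Rbm24) had a mean less than 1 above the value of a gene without reads.

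The regulators were also described by the order of the single libraries. Every mole-rat library lay on 1 side of every outgroup library for 5 of 41 regulators in heart (12.2%, beside 15.2% of all genes tested) and for 6 of 42 in liver (14.3%, beside 16.1%). In heart these were Hnrnpk, Srsf11 and Hnrnpd above the outgroups (7.57% of all genes) and Celf2 and Hnrnpll below them (7.59%). In liver they were Hnrnpa1 and Tra2b above (8.74% of all genes), and Hnrnph1, Mbnl3, Hnrnpab and Hnrnpr below (7.37%). Of these, Hnrnpk and Srsf11 in heart, and all but Hnrnpr in liver, were called between mole-rats and outgroups. Of the 10 regulators called in heart, all 10 had 1 species whose libraries lay outside those of the other 3, with its mean at least 1 from the nearest other mean. In liver 6 of 8 did (75.0%). Over all genes called in the same comparison the shares were 63.8% in heart and 70.4% in liver, so the liver share was near that of all genes. By species, with the same distance of at least 1, 4 heart regulators had naked mole-rat libraries apart (9.76%, beside 8.57% of all genes tested), 1 Damaraland libraries (2.44%, beside 6.44%), 5 guinea pig libraries (12.2%, beside 6.43%) and 4 mouse libraries (9.76%, beside 10.4%). In liver the counts were 5 (11.9%, beside 10.0%), 2 (4.76%, beside 8.51%), 3 (7.14%, beside 9.22%) and 3 (7.14%, beside 12.1%) in that order.

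**Figure D1:**
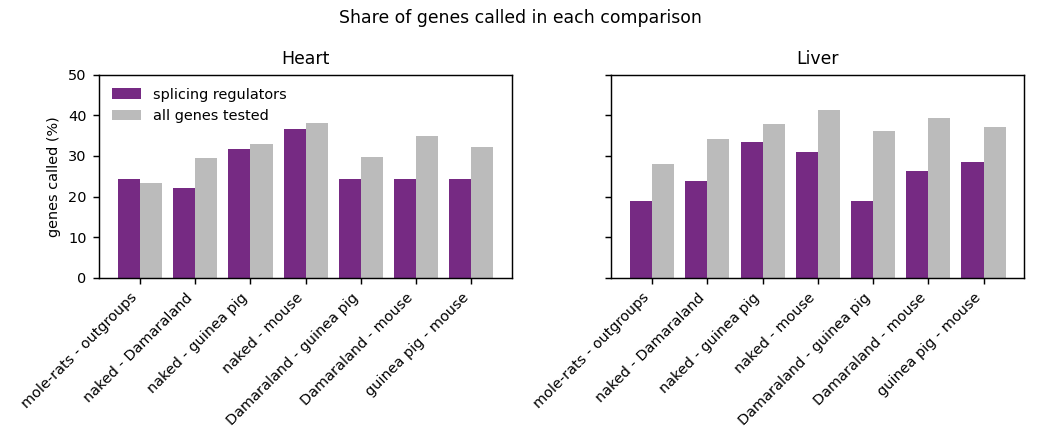
Percent of genes called (adjusted p under 0.05 and a difference of at least 1) in each of the 7 comparisons between species, in heart (left) and liver (right). Purple bars show the splicing regulators tested (41 in heart, 42 in liver) and grey bars all genes tested. The purple bar is lower than the grey bar in every comparison except mole-rats against outgroups in heart, where the shares are 24.4% and 23.4%.

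The share of regulators called was below that of all genes in each comparison of single species, as the plot of genes called shows, and that difference was not tested. These comparisons share libraries and are not independent of each other. In heart, between the mole-rats, 9 regulators differed (22.0%, beside 29.4% of all genes), 7 higher in the naked mole-rats (all genes 14.2%) and 2 lower (all genes 15.2%). Between naked mole-rats and guinea pigs, 13 regulators differed (31.7%, beside 33.0% of all genes), 10 higher in the naked mole-rats (all genes 16.0%) and 3 lower (all genes 17.0%). Between naked mole-rats and mice, 15 regulators differed (36.6%, beside 38.2% of all genes), 10 higher in the naked mole-rats (all genes 18.0%) and 5 lower (all genes 20.2%). In these 3 comparisons more regulators were called higher than lower in the naked mole-rat. The split of 10 to 3 against the guinea pig became 11 to 6 without naked mole-rat replicate 3 and 10 to 5 without guinea pig replicate 2. Between Damaraland mole-rats and guinea pigs, 10 regulators differed (24.4%, beside 29.7% of all genes), 7 higher in the Damaraland mole-rats (all genes 14.7%) and 3 lower (all genes 15.1%). This became 7 to 1 with either other scaling, and 10 to 11 without the size threshold. Between Damaraland mole-rats and mice, 10 regulators differed (24.4%, beside 34.9% of all genes), 5 higher in the Damaraland mole-rats (all genes 16.9%) and 5 lower (all genes 18.0%). The 5 to 5 split became 3 to 5 without Damaraland replicate 2, 3 or 4 or mouse replicate 2 or 3, and 2 to 5 without mouse replicate 1. Between guinea pigs and mice, 10 regulators differed (24.4%, beside 32.1% of all genes), 1 higher in the guinea pigs (all genes 15.2%) and 9 lower (all genes 16.9%). That split was 3 to 9 with voom on the recovered reads, and 9 to 13 without the size threshold.

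In liver, between the mole-rats, 10 regulators differed (23.8%, beside 34.2% of all genes), 5 higher in the naked mole-rats (all genes 16.6%) and 5 lower (all genes 17.6%). Between naked mole-rats and guinea pigs, 14 regulators differed (33.3%, beside 37.8% of all genes), 8 higher in the naked mole-rats (all genes 19.4%) and 6 lower (all genes 18.5%). Between naked mole-rats and mice, 13 regulators differed (31.0%, beside 41.2% of all genes), 7 higher in the naked mole-rats (all genes 21.1%) and 6 lower (all genes 20.1%). Higher and lower calls were close to equal in number in these 3 comparisons. Without guinea pig replicate 2 the split against the guinea pig became 9 to 4, and without naked mole-rat replicate 3 that against the mouse became 6 to 8. Between Damaraland mole-rats and guinea pigs, 8 regulators differed (19.0%, beside 36.2% of all genes), 3 higher in the Damaraland mole-rats (all genes 19.1%) and 5 lower (all genes 17.1%). The split became 6 to 6 with voom, 4 to 4 without Damaraland replicate 1 and 5 to 4 without guinea pig replicate 2. Between Damaraland mole-rats and mice, 11 regulators differed (26.2%, beside 39.2% of all genes), 4 higher in the Damaraland mole-rats (all genes 20.9%) and 7 lower (all genes 18.4%). Between guinea pigs and mice, 12 regulators differed (28.6%, beside 37.2% of all genes), 4 higher in the guinea pigs (all genes 18.8%) and 8 lower (all genes 18.4%). Without guinea pig replicate 2 these became 1 and 10, and without mouse replicate 1 they became 2 and 8.

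Rbm20 (ENSMUSG00000043639), which represses titin exons in heart muscle, was highest in the naked mole-rat and lowest in the guinea pig heart. That difference was the largest among the regulators in heart on the variance-stabilised scale, which compresses low values. By voom the difference of Hnrnph1 between these species was larger, at -5.39 on the log2 scale against 4.32 for Rbm20. Its values in heart were 13.98, 14.34 and 14.04 in the naked mole-rat, 12.24, 12.51, 12.19, 12.80 and 12.43 in the Damaraland mole-rat, 10.08, 9.96 and 9.70 in the guinea pig, and 12.06, 12.12 and 12.40 in the mouse. Naked mole-rat libraries were the highest, guinea pig libraries the lowest, and the Damaraland and mouse libraries overlapped between them. The means corresponded to 17836, 5511, 890 and 4623 scaled reads in that order of species. The difference was 1.69 (SE 0.17, adjusted p = 2.95e-07) between the mole-rats, 4.21 (SE 0.19, adjusted p = 2.19e-11) between naked mole-rat and guinea pig, and 1.93 (SE 0.19, adjusted p = 1.93e-07) between naked mole-rat and mouse. Guinea pig and mouse differed by -2.28 (SE 0.19, adjusted p = 3.55e-08). The Damaraland value did not differ from the mouse past the threshold, at 0.24 (adjusted p = 0.226).

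Rbm24, which stabilises and splices transcripts of striated muscle, was the 1 regulator whose Damaraland hearts lay outside all others with a mean at least 1 from the nearest other mean. Damaraland hearts were also the lowest for Rbfox2 and Ptbp3, by less than that. It read 11.24, 11.49 and 10.98 in the naked mole-rat, 9.72, 9.22, 8.89, 9.20 and 8.30 in the Damaraland mole-rat, 10.77, 10.34 and 10.47 in the guinea pig, and 11.21, 11.47 and 11.58 in the mouse. Each Damaraland library lay below each of the other libraries, and the mouse and naked mole-rat libraries overlapped. Damaraland hearts were lower than naked mole-rat hearts, with a naked-minus-Damaraland difference of 2.17 (SE 0.24, adjusted p = 8.13e-07), than guinea pig hearts (-1.46) and than mouse hearts (-2.35). Naked mole-rat and mouse differed by -0.18 (adjusted p = 0.569), which did not pass.

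The Rbfox proteins bind the hexamer UGCAUG beside the exons of muscle and neuronal genes, and their genes differed between species in unlike ways. Rbfox2 in heart had the values 9.61, 9.53 and 9.45 in the naked mole-rat, 8.79, 8.81, 8.61, 9.18 and 8.32 in the Damaraland mole-rat, 9.65, 9.55 and 9.31 in the guinea pig, and 11.33, 11.43 and 11.53 in the mouse. Mouse hearts were above all others, Damaraland hearts were the lowest, and naked mole-rat and guinea pig libraries overlapped. Rbfox2 was lower in each other species than in the mouse, by -1.90 in the naked mole-rat, -2.69 in the Damaraland mole-rat and -1.93 (SE 0.19, adjusted p = 2.03e-07) in the guinea pig. The mouse mean was 2675 scaled reads and the others lay between 357 and 660. Rbfox1 read 10.81, 10.47 and 10.02 in the naked mole-rat, 9.43, 9.40, 9.03, 9.38 and 8.48 in the Damaraland mole-rat, 9.63, 9.45 and 9.33 in the guinea pig, and 9.54, 9.42 and 9.62 in the mouse. All 3 naked mole-rat hearts were above all other hearts. The naked mole-rat was higher than the Damaraland mole-rat by 1.29 (SE 0.21, adjusted p = 6.74e-05), and its differences from the guinea pig (0.97) and the mouse (0.91) were under the size threshold. Rbfox3, which marks mature neurons, was at 0 in all naked mole-rat hearts and had under 1 scaled read on average in each other species.

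Celf and Mbnl proteins act against each other on many exons that switch during heart development. Celf2 was 1 of 2 regulators with every mole-rat heart below every outgroup heart. Its values were 9.58, 9.56 and 10.40 in the naked mole-rat, 10.37, 9.73, 9.75, 9.91 and 9.43 in the Damaraland mole-rat, 11.21, 10.65 and 10.51 in the guinea pig, and 10.60, 10.66 and 10.84 in the mouse. Naked and Damaraland libraries overlapped, as did guinea pig and mouse libraries, and the gap between the nearest mole-rat and outgroup libraries was small. The difference between mole-rats and outgroups was -0.90 (SE 0.17, adjusted p = 0.000216), under the size threshold. It was past it without naked mole-rat replicate 3 (-1.04) and with voom. Celf1 was higher in the naked mole-rat hearts, at 11.55, 11.43 and 11.67, than in the Damaraland hearts, at 11.07, 10.53, 10.68, 10.71 and 10.65, but the difference of 0.82 (adjusted p = 9.23e-05) was under 1. The 4 neural members Celf3 to Celf6 were not tested in heart, with means of at most 8.81 scaled reads in any species.

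Mbnl2 was highest in the mouse heart. It read 10.11, 9.86 and 10.47 in the naked mole-rat, 10.76, 9.92, 9.98, 9.97 and 9.50 in the Damaraland mole-rat, 11.00, 10.50 and 10.53 in the guinea pig, and 11.88, 11.79 and 11.94 in the mouse. Each mouse library was above each other library, and the Damaraland libraries overlapped with those of the naked mole-rat and the guinea pig. The differences from the mouse were -1.72 (SE 0.25, adjusted p = 1.64e-05) in the naked mole-rat, -1.84 in the Damaraland mole-rat and -1.19 in the guinea pig. Mbnl1 had another order, with 12.46, 12.20 and 12.85 in the naked mole-rat, 11.63, 11.22, 10.76, 11.35 and 10.54 in the Damaraland mole-rat, 11.67, 11.24 and 11.10 in the guinea pig, and 12.06, 11.91 and 12.11 in the mouse. Naked mole-rat libraries were the highest and mouse libraries next, and Damaraland and guinea pig libraries overlapped. Naked mole-rat hearts were above Damaraland hearts by 1.40 (SE 0.23, adjusted p = 5.98e-05) and above guinea pig hearts by 1.17 (adjusted p = 0.000915), a call lost without naked mole-rat replicate 3 (0.99). Mbnl3, expressed mainly in embryo and placenta, was scarce in heart, from 16.7 scaled reads in the naked mole-rat to 93.5 in the guinea pig. Mbnl3 was lower in both mole-rats than in the guinea pig, by -1.10 and -1.03. Without guinea pig replicate 1 both calls were lost (-0.93 and -0.86). The first was also lost without naked mole-rat replicate 1 (-0.99), and the second without Damaraland replicate 5 (-0.96) and with either other scaling (-0.96 and -0.97).

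The polypyrimidine tract binding proteins repress exons, with Ptbp1 widespread, Ptbp2 enriched in neurons and Ptbp3 in blood-forming cells. Ptbp3 in heart read 8.49, 8.50 and 8.13 in the naked mole-rat, 8.11, 7.40, 7.64, 7.67 and 7.27 in the Damaraland mole-rat, 8.33, 8.19 and 8.64 in the guinea pig, and 9.96, 9.69 and 9.60 in the mouse. Mouse hearts were the highest, and the naked mole-rat and guinea pig libraries overlapped above all Damaraland ones. The mouse was higher than each other species, with differences of -1.37, -2.13 and -1.36 (SE 0.21, adjusted p = 3.04e-05) counted from the mouse. Ptbp2 was higher in naked mole-rat hearts, at 9.62, 9.93 and 9.71, than in mouse hearts, at 8.40, 8.64 and 8.10, by 1.38 (SE 0.19, adjusted p = 8.09e-06). Its differences from the Damaraland mole-rat (0.77) and the guinea pig (0.93) were under 1. Ptbp1 was not called in any heart comparison, and its species means were 8.93 ± 0.29 in the naked mole-rat, 9.57 ± 0.13 in the Damaraland mole-rat, 9.60 ± 0.12 in the guinea pig and 9.05 ± 0.04 in the mouse (SD, n = 3, 5, 3 and 3).

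**Figure D2:**
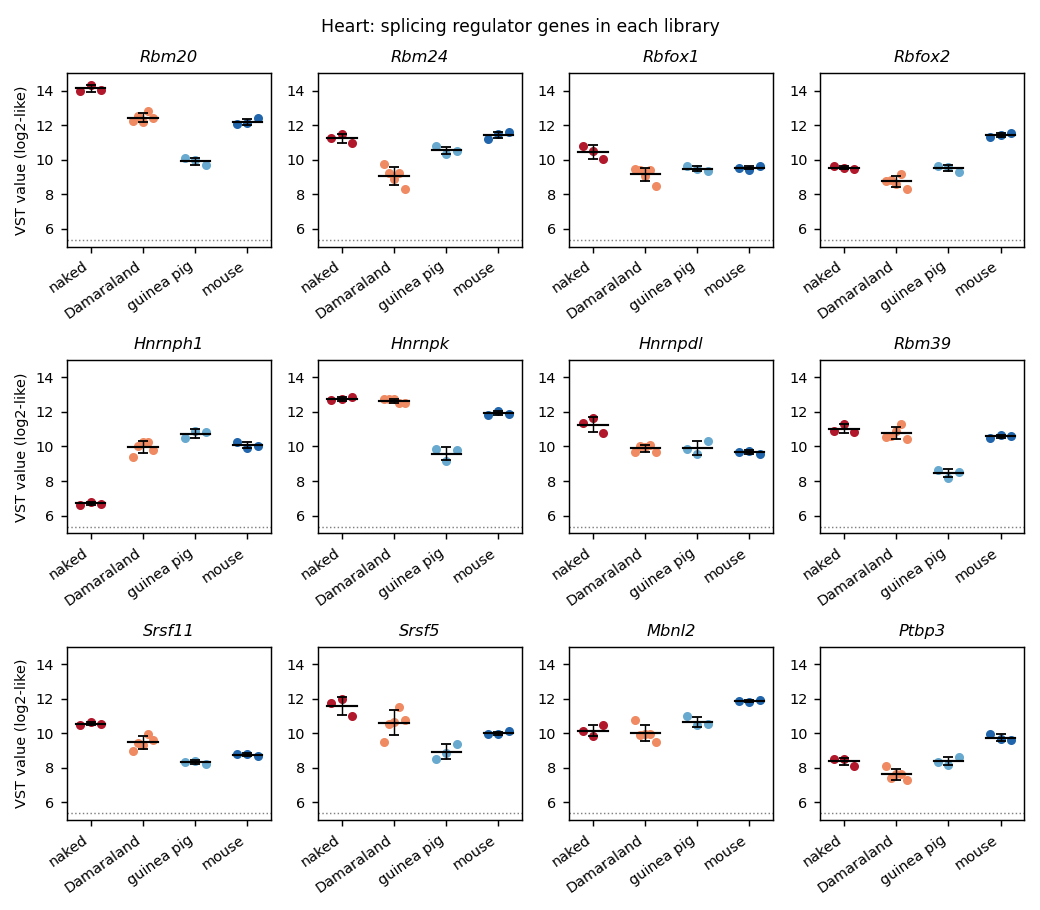
Variance-stabilised values of 12 splicing regulators in every heart library (vertical axis, log2-like) by species (horizontal axis). Points are libraries in replicate order, bars are the mean and SD, and the dotted line is the value of a gene without reads. A species stands apart here where its libraries lie outside all others and its mean is at least 1 from the nearest other mean. Naked mole-rat libraries stand apart in Rbm20, Hnrnph1, Hnrnpdl and Srsf11, and Damaraland libraries in Rbm24. Guinea pig libraries do so in Hnrnpk, Rbm20, Rbm39 and Srsf5, and mouse libraries in Rbfox2, Mbnl2 and Ptbp3.

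SR protein genes leaned higher in naked mole-rat heart than in mouse heart. Of the 8 Srsf genes tested, 5 were called higher and 0 lower (Srsf3, Srsf4, Srsf5, Srsf9, Srsf11), beside 18.0% of all genes called higher and 20.2% called lower in that comparison. The Srsf3 and Srsf4 calls were each lost when a single naked mole-rat library was left out. Srsf6 (-0.69) and Srsf1 (-0.09) were lower and Srsf7 (0.77) higher, all under the size threshold. Against the same mouse hearts, 2 were higher and 1 lower in the Damaraland mole-rat, and 1 higher and 2 lower in the guinea pig. Of the mole-rats against the outgroups, 2 of the 8 were called higher and 0 lower, beside 10.8% and 12.6% of all genes, with a median difference of 0.67. Srsf11 had every mole-rat heart above every outgroup heart. It read 10.48, 10.66 and 10.55 in the naked mole-rat, 8.99, 9.46, 9.33, 9.99 and 9.59 in the Damaraland mole-rat, 8.36, 8.42 and 8.24 in the guinea pig, and 8.82, 8.79 and 8.67 in the mouse. Naked mole-rat hearts were the highest, Damaraland hearts next, and mouse and guinea pig hearts below them without overlap. The difference of mole-rats from outgroups was 1.47 (SE 0.13, adjusted p = 5.81e-08). The naked mole-rat was above the guinea pig by 2.22 and above the mouse by 1.80. Its difference from the Damaraland mole-rat was 1.09 (adjusted p = 5.29e-05), and 0.97 without Damaraland replicate 1. The Damaraland mole-rat was above the guinea pig by 1.13, and above the mouse by 0.71, under the size threshold.

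Srsf5, an SR protein that shuttles between nucleus and cytoplasm, was lowest in the guinea pig heart. Its values were 11.78, 11.99 and 11.00 in the naked mole-rat, 9.51, 10.55, 10.67, 11.54 and 10.76 in the Damaraland mole-rat, 8.51, 8.89 and 9.39 in the guinea pig, and 9.94, 9.98 and 10.11 in the mouse. All guinea pig libraries were below all others, and the Damaraland libraries spread widest and overlapped with both the naked mole-rat and the mouse. Naked mole-rat and guinea pig differed by 2.66 (SE 0.37, adjusted p = 1.22e-05), and Damaraland mole-rat and guinea pig by 1.68. The difference between guinea pig and mouse of -1.08 (adjusted p = 0.0201) was lost without guinea pig replicate 1 (-0.87), guinea pig replicate 2 (-1.06) or mouse replicate 3 (-1.03). Srsf3, whose product regulates its own transcript and mRNA export, was lowest in the mouse heart, at 10.56, 11.00 and 11.59 in the naked mole-rat, 11.42, 11.04, 12.18, 10.88 and 11.49 in the Damaraland mole-rat, 10.56, 11.34 and 10.79 in the guinea pig, and 9.79, 9.94 and 9.84 in the mouse. The mouse libraries lay below all others, while the other 3 species overlapped. Srsf3 was above the mouse by 1.19 in the naked mole-rat, 1.55 (SE 0.27, adjusted p = 9.94e-05) in the Damaraland mole-rat and 1.04 in the guinea pig. The first call was lost without naked mole-rat replicate 3 (0.92) and the last without guinea pig replicate 2 (0.82).

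Srsf6 and Srsf9 followed other orders. Srsf6 was highest in mouse hearts (10.02, 10.02 and 10.17) and lowest in guinea pig hearts (8.20, 8.13 and 7.57), a difference of -2.10 (SE 0.21, adjusted p = 2.71e-07). Srsf9 was higher in naked mole-rat hearts (9.01, 9.17 and 9.55) than in Damaraland hearts (7.63, 7.80, 7.96, 7.54 and 7.74) by 1.51 (SE 0.17, adjusted p = 7.08e-07), and than in mouse hearts (7.81, 7.75 and 7.73) by 1.48. Srsf1, the founding SR protein, was not called in any heart comparison, and its values were 11.00, 11.07 and 9.28 in the naked mole-rat, 10.11, 10.55, 11.06, 10.92 and 10.47 in the Damaraland mole-rat, 10.63, 10.95 and 11.36 in the guinea pig, and 10.70, 10.44 and 10.47 in the mouse. Naked mole-rat replicate 3 was the lowest of the 14 hearts. The same library held a low Srsf4 value of 8.85 beside 11.60 and 11.86 in the other naked mole-rat hearts, and the Srsf4 call against the mouse (1.72 (adjusted p = 0.00862)) was lost without replicate 1 (adjusted p = 0.0517) or replicate 2 (adjusted p = 0.0608). The Srsf4 call of the Damaraland mole-rat against the mouse (1.13 (adjusted p = 0.0422)) was lost without any 1 of 9 libraries (0.99 to 1.16). Srsf7 was not called in heart. Srsf12 was not tested, although it had 0 reads in all 3 mouse hearts and 31.5 and 39.5 scaled reads on average in the naked and Damaraland hearts. The guinea pig hearts had 1.48 on average, and every mole-rat heart lay above every outgroup heart for this gene.

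Tra2b, which binds GAA-rich enhancers, was higher in naked mole-rat heart than in guinea pig heart. It read 9.70, 10.24 and 9.81 in the naked mole-rat, 9.35, 9.18, 9.38, 9.34 and 8.85 in the Damaraland mole-rat, 8.56, 8.38 and 8.03 in the guinea pig, and 9.23, 9.23 and 8.94 in the mouse. Naked mole-rat libraries were above all others, guinea pig libraries below all others, and Damaraland and mouse libraries overlapped. The difference was 1.59 (SE 0.20, adjusted p = 2.82e-06) from the guinea pig, and 0.70 and 0.78 from the Damaraland mole-rat and the mouse, both under 1. Its paralog Tra2a was not called in heart, with means from 7.85 ± 0.33 in the Damaraland mole-rat (SD, n = 5) to 8.52 ± 0.27 in the naked mole-rat (SD, n = 3). Rbm39, a U2AF-related factor, was low in the guinea pig, at 10.89, 11.32 and 10.84 in the naked mole-rat, 10.56, 10.59, 10.90, 11.28 and 10.44 in the Damaraland mole-rat, 8.64, 8.19 and 8.51 in the guinea pig, and 10.51, 10.67 and 10.58 in the mouse. Guinea pig libraries lay below all others, and Damaraland libraries overlapped with those of the naked mole-rat and the mouse. The guinea pig mean of 274 scaled reads compared with 2012, 1688 and 1456 in naked mole-rat, Damaraland mole-rat and mouse. The differences were 2.57 (SE 0.21, adjusted p = 2.9e-08), 2.31 and, for guinea pig minus mouse, -2.14. Rbm25, which binds U1 snRNP, was not called in heart.

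Hnrnph1 (ENSMUSG00000007850), whose product binds runs of G, was low in naked mole-rat heart beside the other hearts. It read 6.62, 6.80 and 6.69 in the naked mole-rat, 9.41, 10.02, 10.27, 10.27 and 9.82 in the Damaraland mole-rat, 10.47, 10.92 and 10.85 in the guinea pig, and 10.28, 9.91 and 10.04 in the mouse. All 3 naked mole-rat libraries were below all others, guinea pig libraries were the highest, and Damaraland and mouse libraries overlapped. The means were 38 scaled reads in the naked mole-rat, 937 in the Damaraland mole-rat, 1655 in the guinea pig and 1007 in the mouse. The naked mole-rat differed by -3.26 (SE 0.19, adjusted p = 3.66e-10) from the Damaraland mole-rat, by -4.05 from the guinea pig and by -3.38 from the mouse. Among its close relatives, Hnrnph2 was not called in any heart comparison, at 9.81, 9.78 and 9.76 in the naked mole-rat. Hnrnpf was lower in the naked mole-rat than in the Damaraland mole-rat by -1.12 (SE 0.14, adjusted p = 3.12e-06), at 10.20, 10.42 and 10.53 against 11.55, 11.52, 11.64, 11.32 and 11.48. Hnrnph3 was higher than in the mouse in both mole-rats, by 1.24 in the naked and 1.03 in the Damaraland mole-rat, whose libraries ranged from 9.08 to 10.58. How reads of such near-identical relatives, or of an incomplete gene model, were assigned in each species is not given in the sources used here, so the Hnrnph1 value is uncertain.

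Hnrnpk, a KH-domain protein that binds C-rich RNA, was low in the guinea pig heart and slightly higher in the mole-rats than in the mouse. Its values were 12.69, 12.72 and 12.89 in the naked mole-rat, 12.73, 12.74, 12.74, 12.50 and 12.50 in the Damaraland mole-rat, 9.84, 9.13 and 9.80 in the guinea pig, and 11.82, 12.06 and 11.90 in the mouse. Both mole-rats overlapped with each other, every mouse library was below them, and the guinea pig libraries were far below the mouse. The means were 6900, 6337, 710 and 3819 scaled reads in the same order. The difference from the guinea pig was 3.18 (SE 0.19, adjusted p = 5.86e-10) in the naked mole-rat and 3.05 in the Damaraland mole-rat, and that between guinea pig and mouse was -2.34. The differences of the naked (0.84) and Damaraland (0.72) mole-rats from the mouse were under the size threshold.

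Hnrnpa1, a splicing repressor that competes with Srsf1, was also lowest in the guinea pig heart. It read 11.69, 12.01 and 11.71 in the naked mole-rat, 10.96, 11.71, 11.68, 11.69 and 12.07 in the Damaraland mole-rat, 9.34, 9.94 and 9.92 in the guinea pig, and 10.88, 11.08 and 11.14 in the mouse. Guinea pig libraries were below all others, the mole-rats overlapped, and Damaraland replicate 1 fell within the range of the mouse. Naked mole-rat and guinea pig differed by 2.07 (SE 0.24, adjusted p = 1.38e-06), Damaraland mole-rat and guinea pig by 1.89, and guinea pig and mouse by -1.30. Hnrnpdl was highest in the naked mole-rat, at 11.38, 11.63 and 10.78 in the naked mole-rat, 9.68, 10.05, 9.96, 10.11 and 9.69 in the Damaraland mole-rat, 9.88, 9.55 and 10.34 in the guinea pig, and 9.69, 9.76 and 9.54 in the mouse. All naked mole-rat hearts were above all other hearts, and the others overlapped. The differences were 1.36 (SE 0.20, adjusted p = 2.34e-05) from the Damaraland mole-rat, 1.34 from the guinea pig and 1.60 from the mouse. Hnrnpab ran the other way, with 9.24, 9.28 and 8.87 in the naked mole-rat against 9.91, 10.45 and 10.53 in the guinea pig and 10.66, 10.77 and 10.74 in the mouse, differences of -1.17 and -1.60 (SE 0.20, adjusted p = 2.53e-06).

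Hnrnpd, known as AUF1 for its part in mRNA decay, had every mole-rat heart above every outgroup heart. It read 10.30, 10.35 and 10.01 in the naked mole-rat, 10.41, 10.63, 10.88, 10.58 and 10.30 in the Damaraland mole-rat, 9.06, 9.42 and 9.51 in the guinea pig, and 9.51, 9.69 and 9.43 in the mouse. The mole-rats' difference from the outgroups was 0.95 (SE 0.12, adjusted p = 3.19e-06), just under the size threshold, and the Damaraland mole-rat was above the guinea pig by 1.23 and above the mouse by 1.02. The mouse call was lost without either of 2 Damaraland or 2 mouse libraries, at 0.94 to 1.0. Hnrnpll, a regulator of lymphocyte splicing, lay below the outgroups in both mole-rats with a difference of -0.67 (SE 0.12, adjusted p = 0.00016). Hnrnpm was above the mouse by 1.66 (SE 0.31, adjusted p = 0.000184) in the Damaraland mole-rat. In the naked mole-rat it read 11.74, 11.75 and 10.05, and its call against the mouse (1.13) was lost without replicate 1 (0.85) or replicate 2 (0.84).

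No comparison in heart called Hnrnpa2b1, Hnrnpc, Hnrnpl, Hnrnpr, Hnrnpu or Hnrnpul1. Hnrnpa2b1, a paralog of Hnrnpa1, read 12.97, 12.76 and 11.57 in the naked mole-rat, 11.63, 12.74, 13.10, 12.93 and 13.10 in the Damaraland mole-rat, 11.23, 12.17 and 12.45 in the guinea pig, and 12.06, 12.29 and 12.29 in the mouse. The libraries of all 4 species overlapped, and those of each species but the mouse spanned more than 1 unit. Hnrnpl, which binds CA repeats, had means from 10.88 ± 0.47 in the guinea pig to 11.24 ± 0.24 in the naked mole-rat (SD, n = 3 each). Hnrnpu, a nuclear matrix protein, had means from 11.51 ± 0.08 in the mouse to 12.03 ± 0.12 in the guinea pig (SD, n = 3 each).

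**Figure D3:**
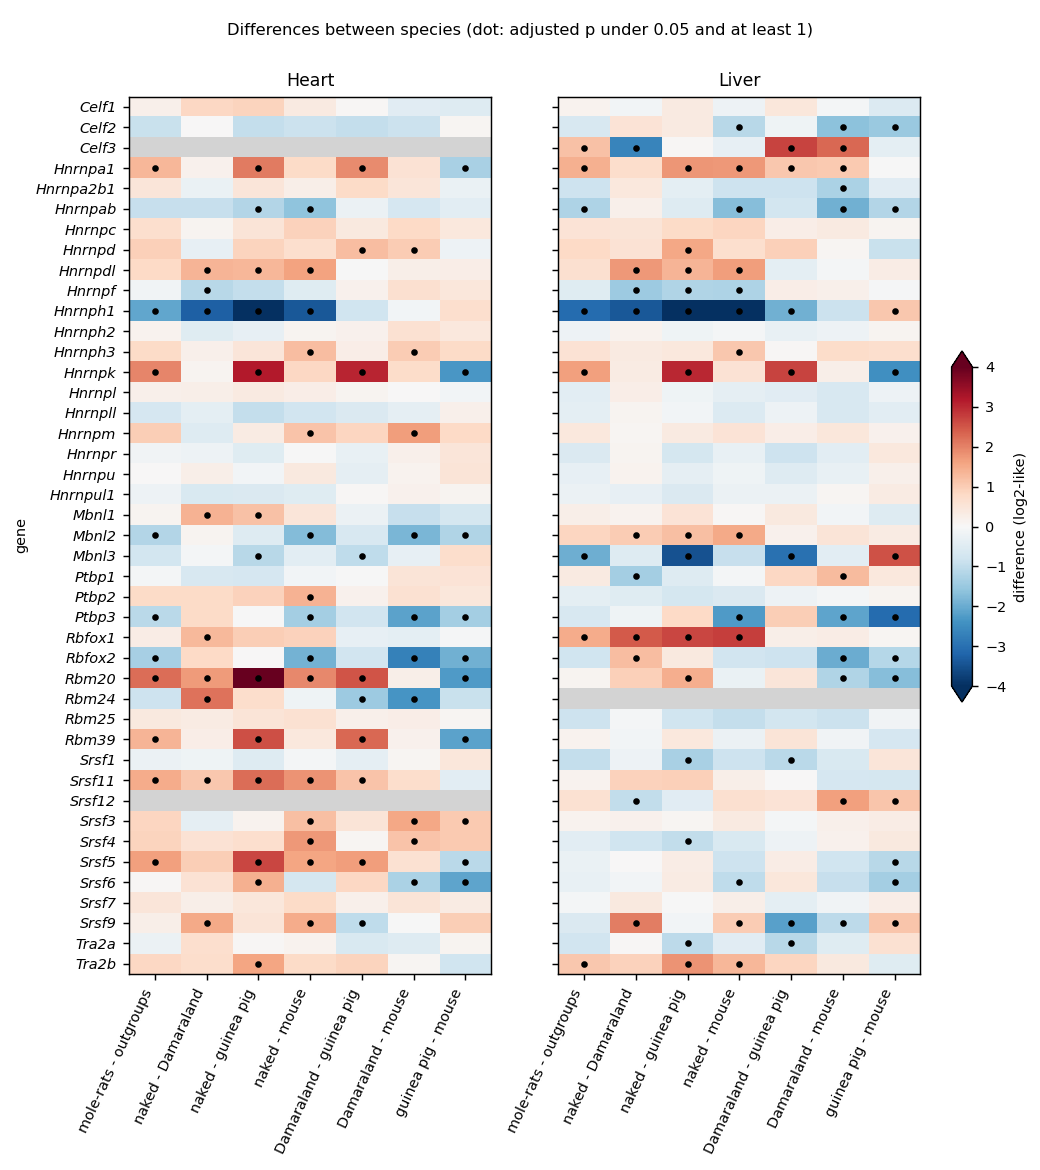
Difference between species (colour, log2-like scale, red higher and blue lower in the species or group named first) for each splicing regulator tested in heart (left) or liver (right). Columns are the 7 comparisons, black dots mark adjusted p under 0.05 with a difference of at least 1, grey marks a gene not tested, and colours saturate at 4. Dark blue marks Hnrnph1 in the naked mole-rat columns of both tissues, and dark red marks Hnrnpk in the columns against the guinea pig.

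In liver, Hnrnph1 and Hnrnpk kept the orders seen in heart and several tissue-restricted regulators stood apart in 1 species. Rbfox1 had reads in naked mole-rat liver and close to none in the other livers. It read 7.14, 7.38, 7.51 and 7.35 in the naked mole-rat, 4.63, 4.83, 4.90, 4.87 and 5.22 in the Damaraland mole-rat, 4.89, 4.29 and 4.82 in the guinea pig, and 4.29 and 4.91 in the mouse. All naked mole-rat livers were above all others, which overlapped near the value of a gene without reads. The means were 127 scaled reads in the naked mole-rat against 3.82, 2.07 and 1.81 in Damaraland mole-rat, guinea pig and mouse. The differences were 2.46 (SE 0.18, adjusted p = 2.85e-09), 2.68 and 2.75. Neuronal markers summed to 66 to 107 scaled reads in the naked mole-rat livers and 23 to 46 in the Damaraland livers. The guinea pig livers had 8 to 20 and each mouse liver 298. Of the 8 markers, 2 or 3 were above 0 in every library of a species. The 2 markers tested had unlike orders. Syt1 was highest in the mouse (mean 8.36, against 4.69 to 5.17 elsewhere). Tubb3 was highest in the naked mole-rat, at 6.76, against 5.78 in the Damaraland mole-rat, 4.92 in the guinea pig and 4.95 in the mouse. The part of neuronal cells in the Rbfox1 result was not tested.

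Rbfox2 in liver was highest in the mouse and lowest in the Damaraland mole-rat. It read 8.14, 8.15, 8.13 and 8.01 in the naked mole-rat, 6.77, 7.02, 7.08, 6.68 and 6.88 in the Damaraland mole-rat, 7.87, 7.64 and 7.66 in the guinea pig, and 8.79 and 8.95 in the mouse. The 4 species did not overlap, in the order mouse, naked mole-rat, guinea pig and Damaraland mole-rat. Naked and Damaraland mole-rats differed by 1.22 (SE 0.13, adjusted p = 2.21e-07), Damaraland mole-rat and mouse by -1.98, and guinea pig and mouse by -1.14. The naked mole-rat was -0.76 from the mouse and 0.38 from the guinea pig, both under the size threshold. Rbm20 was scarce in liver, with means of 41.1, 10.1, 2.83 and 55.1 scaled reads. Its values were 6.09, 6.37, 6.22 and 6.22 in the naked mole-rat, 5.50, 5.54, 5.19, 4.87 and 5.28 in the Damaraland mole-rat, 5.10, 4.59 and 4.67 in the guinea pig, and 6.35 and 6.62 in the mouse. Mouse and naked mole-rat livers overlapped above the Damaraland and guinea pig livers. Naked mole-rat and guinea pig differed by 1.44 (SE 0.19, adjusted p = 4.76e-06), Damaraland mole-rat and mouse by -1.21, and guinea pig and mouse by -1.70. Rbm24 had at most 16.9 scaled reads on average in any species and was not tested.

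Celf3, a neural member of its family, had reads in Damaraland liver and almost none elsewhere. It read 4.29, 4.83, 4.29 and 4.57 in the naked mole-rat, 7.01, 6.57, 7.06, 7.53 and 7.52 in the Damaraland mole-rat, 4.29, 4.71 and 4.29 in the guinea pig, and 4.90 and 4.77 in the mouse. All 5 Damaraland livers were above all others, and several naked mole-rat and guinea pig livers had 0 reads. The Damaraland mean was 109 scaled reads, against 0.873, 0.551 and 2.86 in the naked mole-rat, guinea pig and mouse. The naked-minus-Damaraland difference was -2.64 (SE 0.20, adjusted p = 4.62e-09), and the Damaraland mole-rat was above the guinea pig by 2.71 and the mouse by 2.30. Celf2 was highest in mouse liver, at 7.26, 7.36, 6.59 and 7.57 in the naked mole-rat, 6.57, 6.92, 6.73, 6.62 and 6.36 in the Damaraland mole-rat, 7.27, 6.76 and 6.43 in the guinea pig, and 8.40 and 8.18 in the mouse. Both mouse livers lay above the rest, which overlapped. The Damaraland mole-rat was -1.65 (SE 0.26, adjusted p = 2.55e-05) and the guinea pig -1.47 from the mouse. The naked mole-rat's call (-1.10) was lost without naked mole-rat replicate 3 (-0.90) or mouse replicate 1 (-0.99). Celf1 was not called in liver, with means from 10.47 ± 0.19 in the guinea pig (SD, n = 3) to 11.02 ± 0.07 in the mouse (SD, n = 2).

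Mbnl3 in liver was abundant in the guinea pig and scarce elsewhere. It read 5.39, 5.05, 5.02 and 5.11 in the naked mole-rat, 5.50, 5.73, 5.89, 5.51 and 5.63 in the Damaraland mole-rat, 8.67, 8.27 and 8.94 in the guinea pig, and 6.23 and 5.89 in the mouse. All guinea pig libraries were above all others, and the mole-rat libraries reached almost to the lower mouse library. The means were 7.27, 19, 363 and 34.1 scaled reads. The guinea pig was above the mouse by 2.56 (SE 0.22, adjusted p = 3.99e-08), and the naked and Damaraland mole-rats differed from the guinea pig by -3.48 and -2.97. Leukocyte markers were highest in the same guinea pig livers, and their part in the result was not tested. Mbnl2 was highest in the naked mole-rat liver, at 11.29, 11.47, 10.70 and 10.61 in the naked mole-rat, 10.00, 9.68, 10.44, 10.04 and 9.90 in the Damaraland mole-rat, 10.03, 9.79 and 9.67 in the guinea pig, and 9.75 and 9.23 in the mouse. All naked mole-rat livers were above all others, by the narrowest gap to Damaraland replicate 3. The naked mole-rat was above the mouse by 1.53 (SE 0.26, adjusted p = 5.36e-05) and above the guinea pig by 1.19. Its difference from the Damaraland mole-rat (1.01) was lost without naked mole-rat replicate 1 (0.91) or 2 (0.85), without Damaraland replicate 2 (0.92) or 5 (0.98), and with quantile normalisation (0.96). Mbnl1 was not called in liver, with means from 10.40 ± 0.11 in the guinea pig (SD, n = 3) to 10.96 ± 0.34 in the naked mole-rat (SD, n = 4).

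Ptbp3 was higher in mouse liver than in any other liver, as it was in heart. It read 8.83, 8.59, 8.90 and 8.16 in the naked mole-rat, 8.56, 8.82, 8.56, 8.79 and 9.18 in the Damaraland mole-rat, 7.50, 7.99 and 7.96 in the guinea pig, and 10.98 and 10.80 in the mouse. Mouse livers were the highest, guinea pig livers the lowest, and the mole-rats overlapped. The differences were -3.07 (SE 0.24, adjusted p = 9.68e-09) for guinea pig minus mouse, -2.27 for naked mole-rat minus mouse and -2.11 for Damaraland mole-rat minus mouse. Ptbp1 was highest in the Damaraland liver, at 9.95, 9.94, 10.52 and 10.19 in the naked mole-rat, 11.25, 11.59, 11.60, 11.61 and 11.51 in the Damaraland mole-rat, 10.71, 10.53 and 10.79 in the guinea pig, and 10.47 and 10.02 in the mouse. Each Damaraland library was above each library of the other species. The naked-minus-Damaraland difference was -1.37 (SE 0.15, adjusted p = 4.55e-07), and the Damaraland mole-rat was above the mouse by 1.27. Its difference from the guinea pig (0.84) was under the size threshold. Ptbp2 was not called in liver, with means from 7.14 ± 0.26 in the naked mole-rat (SD, n = 4) to 7.82 ± 0.56 in the guinea pig (SD, n = 3).

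**Figure D4:**
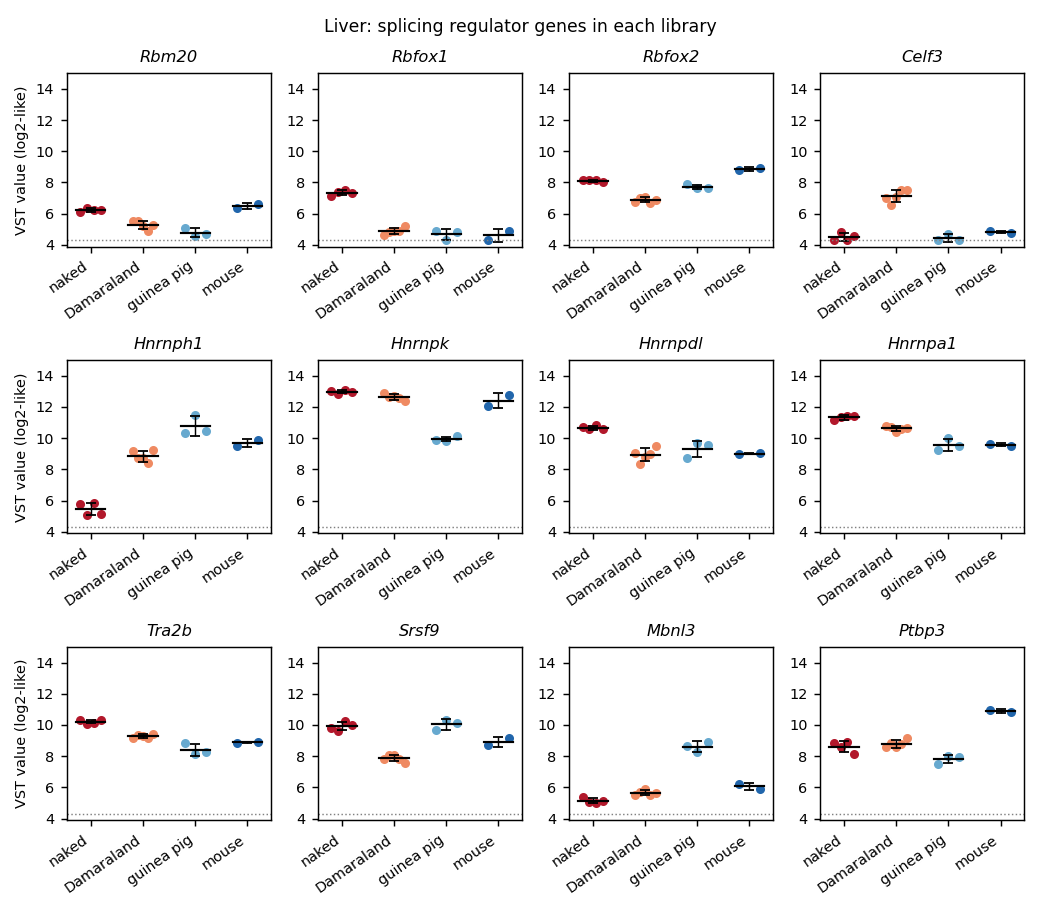
Variance-stabilised values of 12 splicing regulators in every liver library (vertical axis, log2-like) by species (horizontal axis). Points are libraries in replicate order, bars are the mean and SD, and the dotted line is the value of a gene without reads. A species stands apart here where its libraries lie outside all others and its mean is at least 1 from the nearest other mean. Naked mole-rat libraries stand apart in Rbfox1, Hnrnph1 and Hnrnpdl, and Damaraland libraries in Celf3 and Srsf9. Guinea pig libraries do so in Hnrnph1, Hnrnpk and Mbnl3, and mouse libraries in Ptbp3.

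None of the 9 Srsf genes tested in liver was called between mole-rats and outgroups by limma (all genes 15.1% higher and 13.0% lower), and their median difference was -0.26. At an adjusted p under 0.05 without the size threshold, Srsf1 (-0.95), Srsf9 (-0.58) and Srsf12 (0.60) passed, and the same 3 were those with an unadjusted p under 0.05. Voom on the recovered reads, a second test, called Srsf12 (2.15). Srsf9 in liver was low in the Damaraland mole-rat. It read 9.79, 9.63, 10.27 and 10.02 in the naked mole-rat, 7.81, 8.09, 8.07, 7.85 and 7.58 in the Damaraland mole-rat, 9.67, 10.33 and 10.15 in the guinea pig, and 8.69 and 9.16 in the mouse. Damaraland livers were below all others, and naked mole-rat and guinea pig livers overlapped above the mouse. The naked mole-rat was above the Damaraland mole-rat by 2.05 (SE 0.18, adjusted p = 1.75e-08) and the Damaraland mole-rat was below the guinea pig by -2.17 and below the mouse by -1.04. The last call was lost without Damaraland replicate 5 (-0.97), without mouse replicate 2 (-0.81) and with quantile normalisation (-0.99).

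Srsf1 in liver was lower in both mole-rats than in the guinea pig. Its values were 9.75, 9.63, 10.44 and 10.10 in the naked mole-rat, 10.38, 10.22, 10.25, 9.99 and 10.07 in the Damaraland mole-rat, 10.85, 11.64 and 11.30 in the guinea pig, and 10.35 and 11.24 in the mouse. Guinea pig livers were above all mole-rat livers and overlapped with the mouse. The naked mole-rat differed from the guinea pig by -1.29 (SE 0.24, adjusted p = 0.000137), and the Damaraland mole-rat by -1.08, a call lost without guinea pig replicate 2 (-0.89). Srsf3 was not called in liver, and read 10.42, 10.47, 10.45 and 11.41 in the naked mole-rat, 10.99, 10.31, 10.83, 10.40 and 10.11 in the Damaraland mole-rat, 10.54, 11.01 and 10.31 in the guinea pig, and 9.96 and 10.70 in the mouse. Naked mole-rat replicate 4 stood above the other naked mole-rat livers. Srsf5 was called for guinea pig minus mouse (-1.11 (adjusted p = 0.0303)), which was lost without guinea pig replicate 1 (-0.64) or either mouse library (-1.27 and -0.95). Its guinea pig values of 9.07, 10.85 and 10.11 spanned most of the range of the other species. Srsf4 was called in 1 liver comparison, Srsf6 in 2, Srsf12, with at most 40.5 scaled reads on average, in 3, and Srsf7 and Srsf11 in none.

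Tra2b had every mole-rat liver above every outgroup liver. It read 10.30, 10.09, 10.14 and 10.29 in the naked mole-rat, 9.15, 9.36, 9.29, 9.14 and 9.43 in the Damaraland mole-rat, 8.84, 8.13 and 8.26 in the guinea pig, and 8.86 and 8.91 in the mouse. Naked mole-rat livers were the highest, Damaraland livers next, then mouse livers, and guinea pig livers just below those. The mole-rats' difference from the outgroups was 1.09 (SE 0.12, adjusted p = 5.15e-07). The naked mole-rat was above the guinea pig by 1.80 and the mouse by 1.32, and the Damaraland differences (0.86 and 0.39) were under the size threshold. Tra2a was lower in both mole-rats than in the guinea pig, by -1.05 and -1.11 (SE 0.21, adjusted p = 0.000196). The first of these was lost without naked mole-rat replicate 3 (-0.99) or 4 (-0.98) or guinea pig replicate 2 (-0.97), and the second without Damaraland replicate 1 (-0.99). Rbm25 and Rbm39 were not called in liver, although the guinea pig had the lowest Rbm39 mean there too, with guinea pig livers at 9.37, 10.12 and 10.10 and mouse livers at 10.45 and 10.62. Guinea pig and mouse livers differed by -0.67 (adjusted p = 0.0215), under the size threshold, beside -2.14 in heart.

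Hnrnph1 in liver was again low in the naked mole-rat. It read 5.75, 5.05, 5.83 and 5.16 in the naked mole-rat, 9.15, 8.71, 8.71, 8.38 and 9.21 in the Damaraland mole-rat, 10.34, 11.51 and 10.45 in the guinea pig, and 9.50 and 9.89 in the mouse. Naked mole-rat livers were the lowest, guinea pig livers the highest, and the mole-rats together were below both outgroups. The means were 14.8, 428, 1829 and 797 scaled reads. The naked mole-rat differed by -3.38 (SE 0.25, adjusted p = 2.32e-09) from the Damaraland mole-rat, -5.32 from the guinea pig and -4.25 from the mouse. The guinea pig was above the mouse by 1.07, a call lost without guinea pig replicate 2 (0.70) or mouse replicate 1 (0.88). Hnrnpf was lower in naked mole-rat livers, at 10.38, 10.40, 10.75 and 10.33, than in Damaraland livers, at 12.11, 11.96, 11.91, 11.84 and 11.68, guinea pig livers, at 11.48, 11.76 and 11.72, and mouse livers, at 11.32 and 12.08. No naked mole-rat liver reached any of the others. The differences were -1.44 (SE 0.16, adjusted p = 5.34e-07), -1.19 and -1.23, the last lost without mouse replicate 2 (-0.85). Hnrnph2 was not called in any liver comparison.

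Hnrnpk was low in guinea pig liver as in guinea pig heart. It read 13.01, 12.85, 13.07 and 12.97 in the naked mole-rat, 12.91, 12.64, 12.71, 12.55 and 12.41 in the Damaraland mole-rat, 9.89, 9.83 and 10.12 in the guinea pig, and 12.08 and 12.74 in the mouse. Guinea pig livers were below all others, mouse livers were below the naked mole-rat livers, and Damaraland livers overlapped with both. The means were 8035, 6404, 952 and 5547 scaled reads. The naked mole-rat differed from the guinea pig by 3.03 (SE 0.18, adjusted p = 1.32e-10), the Damaraland mole-rat by 2.70, and the guinea pig from the mouse by -2.46. Hnrnpa1 had every mole-rat liver above every outgroup liver, at 11.13, 11.33, 11.44 and 11.43 in the naked mole-rat, 10.80, 10.72, 10.41, 10.57 and 10.66 in the Damaraland mole-rat, 9.22, 10.01 and 9.47 in the guinea pig, and 9.65 and 9.52 in the mouse. Naked mole-rat livers were the highest, Damaraland livers next, and the outgroups overlapped. The mole-rats' difference from the outgroups was 1.41 (SE 0.13, adjusted p = 4.67e-08). The Damaraland calls against the guinea pig (1.07) and the mouse (1.05) were lost without guinea pig replicate 1 (0.89) and without mouse replicate 2 (0.98).

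Hnrnpdl was higher in naked mole-rat liver than in the other livers, at 10.70, 10.57, 10.85 and 10.57 in the naked mole-rat, 9.05, 8.35, 8.79, 8.98 and 9.48 in the Damaraland mole-rat, 8.75, 9.67 and 9.53 in the guinea pig, and 8.98 and 9.05 in the mouse. All naked mole-rat livers were above all others, which overlapped. The differences were 1.74 (SE 0.21, adjusted p = 1.13e-06), 1.36 and 1.66 from the Damaraland mole-rat, guinea pig and mouse. Hnrnpab was highest in the mouse liver, at 9.52, 9.16, 9.91 and 9.96 in the naked mole-rat, 9.75, 9.26, 9.60, 9.48 and 9.06 in the Damaraland mole-rat, 10.02, 10.37 and 10.11 in the guinea pig, and 10.72 and 11.97 in the mouse. The mouse libraries were above all others but differed from each other, and the mole-rats lay below both outgroups. The mole-rats' difference from the outgroups was -1.22 (SE 0.19, adjusted p = 2.63e-05), and -0.91 without mouse replicate 2. The guinea-pig-minus-mouse difference (-1.18) was -0.55 without that library. Hnrnpr lay below the outgroups in every mole-rat liver, with a difference of -0.57 (SE 0.11, adjusted p = 0.000252).

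Hnrnpa2b1 in liver was lower in the Damaraland mole-rat than in the mouse by -1.27 (adjusted p = 0.00367), which was lost without mouse replicate 2 (-1.03). Its values were 11.15, 10.81, 12.31 and 11.63 in the naked mole-rat, 11.36, 10.87, 10.99, 10.93 and 11.09 in the Damaraland mole-rat, 11.19, 12.49 and 11.96 in the guinea pig, and 12.07 and 12.56 in the mouse. Naked mole-rat and guinea pig livers each spanned more than 1 unit. Hnrnpd was higher in the naked mole-rat than in the guinea pig by 1.54 (SE 0.20, adjusted p = 3.05e-06). Hnrnph3 was higher in the naked mole-rat than in the mouse by 1.08. The mouse livers were apart from each other, at 7.48 and 8.15, and the naked mole-rat livers read 8.65 to 9.12. No liver comparison called Hnrnpc, Hnrnpl, Hnrnpll, Hnrnpm, Hnrnpr, Hnrnpu or Hnrnpul1. Hnrnpl had means from 10.76 ± 0.15 in the Damaraland mole-rat (SD, n = 5) to 11.41 ± 0.05 in the mouse (SD, n = 2), and Hnrnpu from 11.30 ± 0.11 in the Damaraland mole-rat (SD, n = 5) to 11.81 ± 0.26 in the guinea pig (SD, n = 3).

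Calls in heart and liver were set side by side for the 40 regulators tested in both. The tables were transformed separately, so no test was made between tissues, and part of the animals are shared. Between mole-rats and outgroups, Hnrnpa1 and Hnrnpk were higher and Hnrnph1 lower in both tissues. These are 3 of 10 heart calls (30.0%) and 3 of 7 liver calls (42.9%), and 0 regulators were called in opposite directions. Over all 10109 genes tested in both tissues, the shared calls were 45.3% of those in heart and 38.1% of those in liver. Of these 3 regulators, Hnrnpk was not called against the mouse in either mole-rat. Its differences were 0.84 (naked) and 0.72 (Damaraland) in heart, and 0.57 and 0.23 in liver. Hnrnpa1 was not called against the mouse in heart (0.77 and 0.59) but was in liver (1.74 and 1.05). Hnrnph1 was not called between Damaraland mole-rat and mouse, at -0.12 in heart and -0.86 in liver. Between naked and Damaraland mole-rats, 5 of 8 calls in each tissue were shared (Hnrnpdl, Rbfox1 and Srsf9 higher, Hnrnpf and Hnrnph1 lower), which is 62.5%, against 47.0% and 41.4% over all genes. Between naked mole-rat and guinea pig, 7 of 13 heart and 14 liver calls were shared (53.8% and 50.0%, against 49.0% and 43.2%). For the Damaraland mole-rat these were 4 of 9 and 7 calls against the guinea pig (44.4% and 57.1%, over all genes 49.7% and 41.0%). Against the mouse they were 2 of 9 in each tissue, Ptbp3 and Rbfox2 (22.2%, over all genes 46.7% and 41.6%). Guinea pig and mouse shared 6 of 10 and 11 calls (60.0% and 54.5%, over all genes 48.0% and 41.2%). The shares of the regulators thus lay on either side of those of all genes. Between naked mole-rat and mouse, 6 of 15 heart and 13 liver calls were shared (40.0% and 46.2%, against 48.4% and 45.1%), and 1 was opposite. That gene was Mbnl2, lower in the naked mole-rat than in the mouse in heart (-1.72) and higher in liver (1.53).

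Genes that act with these regulators were counted in lists of SR protein kinases and phosphatases, other splicing regulators, core spliceosome subunits, and nuclear import and export factors. Between mole-rats and outgroups 10.8% of all genes were called higher and 12.6% lower in heart, and 15.1% and 13.0% in liver. In heart, 1 of 10 kinases and phosphatases was higher (Srpk3, 1.02) and 1 lower (Srpk2, -1.17). Of 40 other regulators, 4 were higher and 1 lower, led by Ewsr1 (1.51), Tial1 (1.49) and Srrm2 (1.49). Of 44 core subunits, 4 were higher and 1 lower, led by Luc7l (2.13), Snrpd2 (1.84) and Prpf19 (-1.77), and of 8 import and export factors 0 were higher and 1 lower (Thoc1, -1.77). Prpf19 stood out through the mouse, with a mean of 12.11 there against 8.97 to 9.75 in the other species. In liver, Clk1, a kinase of SR proteins, was the 1 of 9 kinases and phosphatases called (-1.57). Of 42 other regulators 5 were higher and 2 lower, led by Srrm3 (2.14), Pcbp3 (2.04) and Pcbp2 (1.71). Of 44 core subunits 2 were higher and 1 lower (Snrpd2, 2.01, Eftud2, 1.08, and Snrnp70, -1.08, with an SD of 1.46 in the guinea pig), and of 8 import and export factors 1 was higher and 1 lower (Thoc5, 1.05, and Thoc1, -3.09).

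Srrm3, which promotes microexons in neurons, followed Celf3 in liver, with a mean of 8.81 ± 0.55 in the Damaraland mole-rat (SD, n = 5) and 4.29 to 4.54 in the other species. Some of these differences were between reads and no reads. Snrpd2, a subunit of the Sm ring that every cell needs, was listed at 0 reads in every guinea pig library of both tissues, and Thoc1 at 0 in every naked mole-rat heart. Among all genes, 2 in heart and 3 in liver were at 0 in the guinea pig with at least 100 scaled reads in each other species, and 14 and 18 in the naked mole-rat. None of the regulators described here was among them.

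Within species, the regulators' values were spread wider than those of all genes in 6 of the 8 groups, and narrower in mouse heart and Damaraland liver. The median SD over the heart regulators was 0.263 in the naked mole-rat, 0.323 in the Damaraland mole-rat, 0.269 in the guinea pig and 0.101 in the mouse, against 0.253, 0.257, 0.181 and 0.11 over all genes tested. In liver it was 0.267, 0.213, 0.331 and 0.235, against 0.228, 0.227, 0.23 and 0.184. Single libraries often led many regulators. Naked mole-rat heart replicate 2 was the highest naked mole-rat heart for 24 of 41 regulators (58.5%, beside 24.2% of all genes tested), and replicate 3 was the lowest for 21 (51.2%, beside 37.8%). In liver, guinea pig replicate 2 was the highest guinea pig liver for 28 of 42 regulators (66.7%, beside 33.1%) and naked mole-rat replicate 3 the highest naked mole-rat liver for 23 (54.8%, beside 27.7%). Mouse liver replicate 2 was above replicate 1 for 29 of 42 (69.0%, beside 47.7%).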

How the data were processed

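Ribosomal-RNA-depleted total RNA of 14 heart and 14 liver libraries was sequenced. Per the submitters' processing notes the steps named cutadapt, Salmon 013.1, DESeq2 and build GRCm38. The transcriptome of each species and the assignment of genes across species are not given in the sources used here. The authors deposited 1 table per tissue of variance-stabilised, log2-like values, each transformed on its own, and 13921 of 13928 rows were matched to a mouse symbol. Another 15 heart and 11 liver columns match no sample label here and were not used. Inverting the transform gave whole reads for 100% of values (relative tolerance 0.0001). From these reads came depth, scaled reads and a test with voom.

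Genes with a mean at least 1 above the value of a gene without reads entered limma 3.58.1 (R 4.3.3), tissue by tissue, with 1 coefficient per species, a variance trend and Benjamini-Hochberg adjustment over all genes tested. The SE of a difference is limma's. Alternatives were voom, no filter, no size threshold, no variance trend, centring on the median, quantile normalisation, a block for the replicate number, and omission of each library in turn. The fit was tested on simulated data. Replicate numbers do not pair animals across species. The labels name separate animals but no litters or batches.

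The members, the other lists and the naming rule were chosen with earlier results of these data known. The rule named, per tissue, members called between mole-rats and outgroups without overlap of libraries, members with 1 species at least 1 from the others, and 20 fixed genes. Further members were named after their values were seen. Markers of 9 cell types were summed per library.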

Additional observations from a re-analysis of the deposited data

Results flagged for a closer look

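Of 81 groups of 4 or 5 libraries in which a named regulator was checked, 7 held 1 library whose gap to its nearest neighbour was large beside the range of the group, where chance gives about 1 in 20. In heart, Hnrnpa2b1 was 11.63 in Damaraland replicate 1 and 12.74 to 13.10 in the other Damaraland hearts. In liver, Srsf3 was 11.41 in naked mole-rat replicate 4 and 10.42 to 10.47 in the other naked mole-rat livers. Hnrnpf was 10.75 in naked mole-rat replicate 3 against 10.33 to 10.40, and Rbfox2 was 8.01 in naked mole-rat replicate 4 against 8.13 to 8.15. Among Damaraland livers, Celf1 was 11.19 in replicate 5 against 10.84 to 10.89, Mbnl1 was 10.60 in replicate 1 against 10.83 to 10.91, and Ptbp1 was 11.25 in replicate 1 against 11.51 to 11.61. The groups of 3 libraries in both tissues, guinea pig livers among them, and the mouse livers were too small for this check.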

How the results depend on the processing

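No difference that was called changed direction under any alternative. Differences near 0 that were not called could, as for Srsf1 between naked mole-rat and mouse in heart (-0.09, and 0.01 with voom). Without the size threshold, the counts of regulators called in heart rose to 26 for mole-rats against outgroups, 22 for naked against Damaraland mole-rats, 27 and 29 for naked mole-rats against guinea pigs and mice, 21 and 24 for Damaraland mole-rats against the same, and 22 for guinea pigs against mice. In liver they rose to 29, 20, 25, 22, 23 and 19, and the count for guinea pigs against mice stayed within 1.5 times. No other setting moved a count of calls by more than that. Leaving out 1 library gave 10 to 14 calls between mole-rats and outgroups in heart and 7 to 10 in liver. The count of regulators whose mole-rat libraries did not overlap with the outgroups was 5 to 9 in heart (9 without Damaraland replicate 1) and 6 to 9 in liver, and the cause was not tested. Where a mouse liver was left out, the lone library was assumed to vary like the others. With the replicate number as a block, 10 regulators were called between mole-rats and outgroups in heart and 8 in liver, and the heart splits of Damaraland mole-rats against guinea pigs and mice became 6 to 1 and 3 to 5. The numbers do not pair animals. With each gene centred within species, same-numbered libraries of different species correlated by -0.26 to 0.30 in heart and -0.23 to 0.15 in liver. A library's best-correlated library of another species had the same number in 11 of 36 cases in heart and 12 of 32 in liver. Depth limits scarce genes, since the scale compresses their differences and most were measured by few reads.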
